A study of Mus musculus with 2 samples.

Results

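The protein tyrosine phosphatases described here are the 42 genes, of 23235 in the deposited table, whose symbols begin with Ptpn and a digit, Ptpr and a letter, or Ptp4a and a digit. They comprise 21 receptor-type phosphatases, 17 cytosolic (non-receptor) phosphatases and 3 PRL phosphatases. The remaining symbol, Ptprcap, matches by name only: it encodes a small transmembrane partner of CD45 and has no phosphatase domain. RNA was sequenced from haematopoietic progenitors of C57B6 bone marrow that had been depleted of lineage-positive cells, transduced with a pair of retroviruses, one MIGR1-HA-Hoxa9-ER and the other MIGR1-Flag-Meis1, and cultured with IL3. In the EtOH group, 4-hydroxytamoxifen (4OHT) had been washed out and the cells kept in ethanol, its solvent, for 72 h, which removes Hoxa9-ER, a fusion of the transcription factor Hoxa9 to a hormone-binding part, from the nucleus. The 4OHT group was washed alike and kept for 72 h in 100 nM 4OHT. Both groups carry Meis1, both grow in IL3, and both descend from cells transformed in culture, so neither holds untransduced marrow.

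Tyrosine phosphatases remove phosphate from tyrosines of proteins and so oppose or, by removing inhibitory phosphates, release tyrosine kinases. The receptor types cross the membrane, and the cytosolic types are brought to their substrates by SH2, FERM, PDZ or proline-rich parts. In blood cells CD45 sets the activity of Src-family kinases, and SHP-1 restrains signalling by cytokine and antigen receptors; mice that lack SHP-1 accumulate myeloid cells.

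Each condition was given as 1 FPKM value per gene (fragments scaled to transcript length and to the mapped fragments of the library) that stands for 2 biological replicates, so no value below carries a replicate error and no test of the present work was possible between conditions. Genes were called as in the authors' deposited table, where Cuffdiff gave a q-value of at most 0.05, and "rose" and "fell" are used of those calls alone. Changes are log2((FPKM EtOH + 1)/(FPKM 4OHT + 1)), positive where EtOH is higher. Members in the receptor, cytosolic and PRL classes are compared by counts and medians only. FPKM summed to 591496 in EtOH and 544802 in 4OHT. The depth of the libraries is unknown, because FPKM values do not give read totals. Of the cell type markers, 5 of 5 neutrophil genes rose, to a summed 16008 FPKM in EtOH against 51.3 FPKM in 4OHT, and 3 of 3 eosinophil genes rose, to 4667 FPKM in EtOH against 125.8 FPKM in 4OHT. All 5 basophil or mast cell genes rose too, to 3264 FPKM in EtOH against 725.4 FPKM in 4OHT, and of 3 tested monocyte or macrophage genes 2 rose and 1 fell. Of 5 progenitor markers, Cd34 and Flt3 fell, Gata2 rose, and Kit and Myb did not pass. Cd3e, Cd3g, Pax5 and Ebf1, which define T and B cells, were listed at 0 in both conditions. In such bulk samples a changed share of a cell type and a changed amount of RNA per cell cannot be told apart.

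After 4OHT withdrawal 6 phosphatase genes rose and 1 fell. Ptprc and Ptpn6, which encode the leukocyte phosphatases CD45 and SHP-1, were 1.90 and 2.00 times as high in EtOH, and Ptpn12, Ptpn3, Ptprf and the scarce Ptprg also rose. Ptpn2, which encodes the Jak and Stat phosphatase TC-PTP, fell. Of the 42 members 27 were tested by the authors. The 6 that rose were 22.2% of these, against a background of 12.0% of all tested genes called higher in the authors' deposited table. The 1 that fell was 3.70%, against 10.5% called lower. In either direction 25.9% of the tested members were called, near the background of 22.5%. When a ratio of at least 1.5 was asked for as well, as in the authors' own second call, 5 of the 27 tested members were higher and 0 lower. Of all tested genes 9.89% were higher and 7.23% lower by that call. At an unadjusted Cuffdiff p under 0.05 in the authors' deposited table, 8 of the 27 tested members were higher and 5 of the 27 lower. Of all tested genes 15.6% were higher and 15.8% lower at that limit.

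Sequences upstream of the transcription start are shown for Ptprc and Ptpn6, the abundant members that rose most, for Ptpn3, which also rose, and for Ptpn11, the closest relative of Ptpn6, which did not pass. Each is the 250 bases before a RefSeq start (build GRCm38.p6, minus strand), and capitals mark AGGAAG, the core bound by Ets factors such as PU.1, or TGACAG, bound by Meis factors, on either strand. The Ptprc sequence lies at chr1:138175306-138175555, that of Ptpn6 at chr6:124738710-124738959, that of Ptpn3 at chr4:57301838-57302087 and that of Ptpn11 at chr5:121191398-121191647.
Ptprc: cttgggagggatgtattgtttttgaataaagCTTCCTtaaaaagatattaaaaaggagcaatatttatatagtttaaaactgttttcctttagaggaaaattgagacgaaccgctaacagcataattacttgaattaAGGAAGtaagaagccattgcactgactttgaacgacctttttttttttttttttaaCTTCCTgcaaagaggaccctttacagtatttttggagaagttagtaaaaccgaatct
Ptpn6: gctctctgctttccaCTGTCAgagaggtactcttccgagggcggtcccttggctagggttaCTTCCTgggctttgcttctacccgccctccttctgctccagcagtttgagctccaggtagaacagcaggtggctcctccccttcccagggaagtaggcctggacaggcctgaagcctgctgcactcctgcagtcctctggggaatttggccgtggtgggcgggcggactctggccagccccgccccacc
Ptpn3: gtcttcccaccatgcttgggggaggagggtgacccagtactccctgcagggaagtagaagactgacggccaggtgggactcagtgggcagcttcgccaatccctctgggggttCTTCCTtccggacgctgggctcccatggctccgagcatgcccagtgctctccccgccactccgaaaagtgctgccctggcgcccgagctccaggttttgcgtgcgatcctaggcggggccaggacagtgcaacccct
Ptpn11: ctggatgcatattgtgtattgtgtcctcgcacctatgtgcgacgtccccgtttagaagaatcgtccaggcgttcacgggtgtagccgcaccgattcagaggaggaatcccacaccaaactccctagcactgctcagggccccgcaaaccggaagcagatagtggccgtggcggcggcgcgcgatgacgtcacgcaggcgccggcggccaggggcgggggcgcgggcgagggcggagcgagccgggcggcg

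The AGGAAG core (CTTCCT on the other strand) occurred 3 times in the Ptprc sequence, once each in those of Ptpn6 and Ptpn3, and not in that of Ptpn11. RefSeq lists a further Ptprc start, whose 250 bases at chr1:138175127-138175376 overlap those shown and hold 1 core, the same one that stands nearest the start in the sequence above. The sequence before Ptprf, which also rose, held none. Of the members that did not pass, Ptpn7 and Ptprj each had a start with 2 cores. Base composition differed too: the GC content was 31.6% upstream of Ptprc and 63.2%, 64.8% and 66.8% upstream of Ptpn6, Ptpn3 and Ptpn11. RefSeq starts were matched for 34 of the 42 members, with 48 starts in all. Ptpn12, which rose, and Ptpn2, the only member that fell, were among the 8 not matched, so no matched member fell. Counted once per gene, over all its starts, the core stood before 4 of the 5 matched members that rose and 11 of the 29 others, against 32.3% of all 27025 genes. TGACAG stood before 1 of the 5 and 7 of the 29, against 18.0% of all genes. The joint Pbx and Hox motif TGATTNAT stood before none of the 34 members, against 3.31% of all genes, and the C/EBP motif TTGCNNAA before 2, against 10.8%. A gene with more starts has more sequence in which a motif can occur. The motifs do not contain one another. Which start the cells used was not measured.

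**Figure D1:**
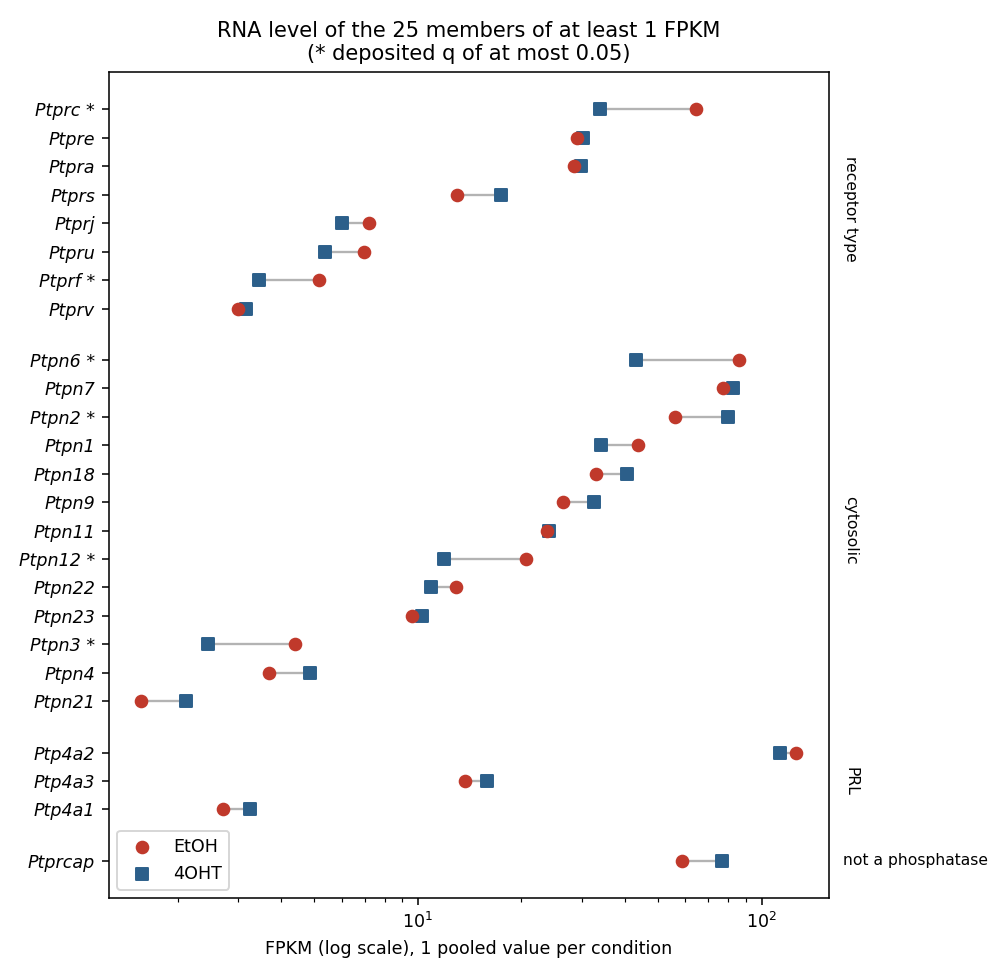
FPKM of the 25 members of at least 1 FPKM in either condition, on a log axis, with circles for EtOH and squares for 4OHT. The values run from 1.57 FPKM (Ptpn21) to 126 FPKM (Ptp4a2) in EtOH, and Ptpn6 and Ptprc show the widest gaps between the conditions among the abundant genes.

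At least 1 FPKM in either condition was reached by 25 members, made of 8 of 21 receptor types, 13 of 17 cytosolic types, all 3 PRL genes and Ptprcap. The nearest values on the other side of that limit were 2.11 FPKM for Ptpn21 in 4OHT and 0.50 FPKM for Ptprg in EtOH. The most abundant member in both conditions was Ptp4a2, at 126 FPKM in EtOH and 113 FPKM in 4OHT, at percentile 94.2 of expressed genes in EtOH and 93.5 in 4OHT. In EtOH it was followed by Ptpn6, Ptpn7, Ptprc, Ptprcap and Ptpn2, and in 4OHT by Ptpn7, Ptpn2, Ptprcap, Ptpn6 and Ptpn18. Ptpn6 held rank 2 in EtOH and rank 5 in 4OHT, and Ptprc rank 4 in EtOH and rank 8 in 4OHT. The whole family held 0.128% of the FPKM sum in EtOH and 0.132% in 4OHT.

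Among the receptor types, 3 of the 10 tested rose and none fell. That was 30.0% higher and 0% lower, against 12.0% and 10.5% of all tested genes. Ptprc, which removes the inhibitory phosphate of Src-family kinases in all nucleated blood cells, had 64.5 FPKM in EtOH and 33.9 FPKM in 4OHT (log2 change 0.91). The authors' deposited table gives it q = 1.42e-06, and the locus is at chr1:139959438-140071882 (mm9). EtOH was thus the higher condition by a factor of 1.90, and Ptprc stood at percentile 88.1 of the expressed genes in EtOH and 77.4 in 4OHT. Of the other general leukocyte markers, Cd53 (302 FPKM in EtOH, 175 FPKM in 4OHT) and Laptm5 (347 FPKM in EtOH, 262 FPKM in 4OHT) rose, and Coro1a (418 FPKM in EtOH, 394 FPKM in 4OHT) did not pass. Neutrophil, eosinophil and basophil or mast cell markers moved with Ptprc, and their part in its rise was not tested.

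Ptprcap, whose protein associates with CD45, did not follow Ptprc. It had 58.5 FPKM in EtOH and 76.9 FPKM in 4OHT (log2 change -0.39), which did not pass in the authors' deposited table (q = 0.0723). The ratio of Ptprc to Ptprcap was 1.10 in EtOH and 0.441 in 4OHT. Of the 50-base words of Ptprcap transcripts 24.5% also occur in transcripts of Coro1b, which lies 610 bases away on chromosome 19 and had 88.3 FPKM in EtOH and 70.1 FPKM in 4OHT, so the level of Ptprcap is uncertain.

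Ptpra and Ptpre, a pair of short receptor types that also act on Src-family kinases, differed little between the conditions. Ptpra had 28.4 FPKM in EtOH and 29.9 FPKM in 4OHT, and Ptpre 29.0 FPKM in EtOH and 30.2 FPKM in 4OHT. In the authors' deposited table neither passed (q = 0.825 and q = 0.852). Ptprc was thus 2.27 times as high as Ptpra in EtOH and 1.13 times in 4OHT. Each locus overlaps another expressed row, at 1.01 FPKM in EtOH and 1.19 FPKM in 4OHT for Ptpra and 3.39 FPKM in EtOH and 1.94 FPKM in 4OHT for Ptpre.

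Among the receptors with cell-adhesion ectodomains, 1 subgroup held changes of opposite sign, of which only that of Ptprf was called. Ptprf, which encodes LAR, rose to 5.15 FPKM in EtOH, against 3.46 FPKM in 4OHT (log2 change 0.46, authors' deposited table, q = 0.00862). Its ratio of 1.49 lay just under the limit of 1.5 in the second call. Ptprs, from the same subgroup and a receptor for proteoglycans, had 13.0 FPKM in EtOH and 17.5 FPKM in 4OHT (-0.41), and did not pass (authors' deposited table, q = 0.0697). Ptprd, the remaining gene of that subgroup, was listed at 0 in both conditions. Ptpru had 6.97 FPKM in EtOH and 5.37 FPKM in 4OHT (0.32, authors' deposited table, q = 0.113). Ptprj, the Src-family regulator CD148, had 7.23 FPKM in EtOH and 6.0 FPKM in 4OHT (0.23, authors' deposited table, q = 0.268), with 9.65% of its words shared with other transcripts. Ptprv had 3.00 FPKM in EtOH and 3.16 FPKM in 4OHT and did not pass.

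The other 13 receptor types lay at or under 0.50 FPKM. Ptprg, which carries a carbonic anhydrase-like part outside the cell, was the only one of them called: it rose to 0.50 FPKM in EtOH, against 0.0441 FPKM in 4OHT. That is a ratio of 11.3 at q = 3.91e-10, both from the authors' deposited table, but a log2 change of only 0.52 with the pseudocount of 1. Ptprk had 0.206 FPKM in EtOH and 0.386 FPKM in 4OHT and did not pass (authors' deposited table, q = 0.0796). The authors left 11 receptor types untested. Of these Ptprb, Ptprd, Ptprh and Ptprq were listed at 0 in both conditions, Ptprr at 0 in 4OHT with 0.146 FPKM in EtOH, and Ptprm at 0 in EtOH with 0.00353 FPKM in 4OHT. The others, Ptprn, Ptprn2, Ptpro, Ptprt and Ptprz1, had between 0.0130 FPKM (Ptprz1) and 0.234 FPKM (Ptprn) in EtOH and between 0.00423 FPKM (Ptprn2) and 0.0993 FPKM (Ptprt) in 4OHT. The loci of the receptor types under 1 FPKM were long, with a median of 257 kb, against 97.8 kb for those above it.

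**Figure D2:**
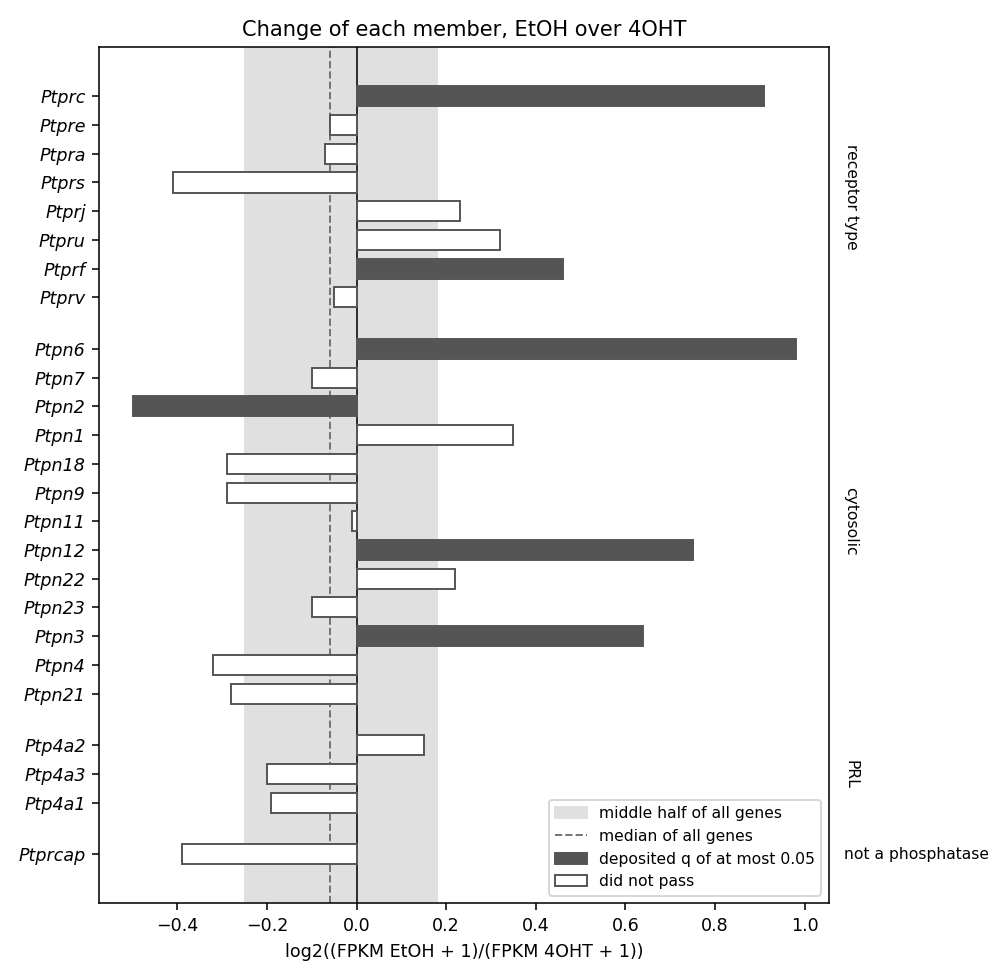
Log2 change of each of the 25 members of at least 1 FPKM, EtOH over 4OHT, with filled bars for genes called in the authors' deposited table and open bars for the rest. The grey band spans the quartiles of all expressed genes (-0.25 to 0.18) and the dashed line their median (-0.06); the 6 filled bars are Ptprc, Ptprf, Ptpn6, Ptpn12, Ptpn3 and, to the left, Ptpn2.

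Of the 13 cytosolic phosphatases tested, 3 rose, 1 fell and 9 did not pass. That was 23.1% higher and 7.69% lower, against 12.0% and 10.5% of all tested genes. Ptpn6 had 85.9 FPKM in EtOH and 43.0 FPKM in 4OHT (log2 change 0.98, authors' deposited table, q = 3.39e-10), at chr6:124670736-124688727 (mm9). Ptpn11 encodes SHP-2, which has the same layout of SH2 domains but mostly promotes Ras signalling, and had 23.8 FPKM in EtOH and 24.0 FPKM in 4OHT (-0.01, authors' deposited table, q = 0.981). SHP-1 RNA thus stood at 3.61 times SHP-2 RNA in EtOH and 1.79 times in 4OHT. As with Ptprc, the part of the neutrophil, eosinophil and basophil or mast cell markers in the rise of Ptpn6 was not tested.

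Ptpn2 and Ptpn1, near relatives that both act on Jak kinases, had changes of opposite sign. Ptpn2, at chr18:67825155-67884275 (mm9), had 56.0 FPKM in EtOH and 79.8 FPKM in 4OHT (-0.50, authors' deposited table, q = 0.00822). Ptpn1, which encodes PTP1B of the endoplasmic reticulum, had 43.6 FPKM in EtOH and 34.0 FPKM in 4OHT (0.35), and missed the limit (authors' deposited table, q = 0.0555). The ratio of Ptpn1 to Ptpn2 was 0.777 in EtOH and 0.426 in 4OHT. The fall of Ptpn2, to 0.703 of its 4OHT level, was smaller than 1.5-fold.

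In the PEST group, whose proline-rich tails bind adaptor proteins of the cytoskeleton, 1 of 3 members rose. Ptpn12, or PTP-PEST, had 20.7 FPKM in EtOH and 11.9 FPKM in 4OHT (0.75, authors' deposited table, q = 1.31e-05). Ptpn22, a partner of the kinase Csk, had 12.9 FPKM in EtOH and 10.9 FPKM in 4OHT (0.22), and Ptpn18 had 33.0 FPKM in EtOH and 40.5 FPKM in 4OHT (-0.29). In the authors' deposited table neither passed (q = 0.396 and q = 0.200). Ptpn18 was the most abundant of the 3 in both conditions, by a smaller margin over Ptpn12 in EtOH than in 4OHT.

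Ptpn3 and Ptpn4, which share FERM and PDZ domains, again had opposite signs. Ptpn3 had 4.39 FPKM in EtOH and 2.46 FPKM in 4OHT (0.64, authors' deposited table, q = 1.68e-04). Ptpn4 had 3.69 FPKM in EtOH and 4.86 FPKM in 4OHT (-0.32) and did not pass (authors' deposited table, q = 0.166). Ptpn3 was the higher of the pair in EtOH and Ptpn4 in 4OHT.

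The remaining cytosolic genes did not pass. Ptpn7, a blood-cell phosphatase of the MAP kinases Erk and p38, had 77.0 FPKM in EtOH and 82.6 FPKM in 4OHT (-0.10). Its locus begins 149 bases after that of Ptprv on chromosome 1. Ptpn9, a phosphatase of secretory vesicles, had 26.5 FPKM in EtOH and 32.6 FPKM in 4OHT (-0.29, authors' deposited table, q = 0.149), and its locus overlaps Gm10658, at 3.59 FPKM in EtOH and 2.34 FPKM in 4OHT. Ptpn23, which sorts receptors in endosomes, had 9.59 FPKM in EtOH and 10.3 FPKM in 4OHT (-0.10), and Ptpn21 had 1.57 FPKM in EtOH and 2.11 FPKM in 4OHT (-0.28). Ptpn5, Ptpn13, Ptpn14 and Ptpn20 were not tested. Ptpn13 was listed at 0 in 4OHT and had 0.262 FPKM in EtOH; its unadjusted p-value in the authors' deposited table was 3.14e-07, but the authors marked it as not tested. Ptpn20 was listed at 0 in both conditions, and Ptpn5 and Ptpn14 lay at or under 0.0269 FPKM.

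None of the 3 PRL genes, which encode small lipid-anchored phosphatases, passed the test. Ptp4a2 had a log2 change of 0.15 (authors' deposited table, q = 0.652) and held 88.5% of the PRL sum in EtOH and 85.6% in 4OHT. Ptp4a3 had 13.7 FPKM in EtOH and 15.9 FPKM in 4OHT (-0.20). Ptp4a1 had 2.72 FPKM in EtOH and 3.26 FPKM in 4OHT (-0.19). Its locus overlaps the row Gm13363, at 30.1 FPKM in EtOH and 37.2 FPKM in 4OHT, and 8.15% of its words are shared, so its level is uncertain.

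**Figure D3:**
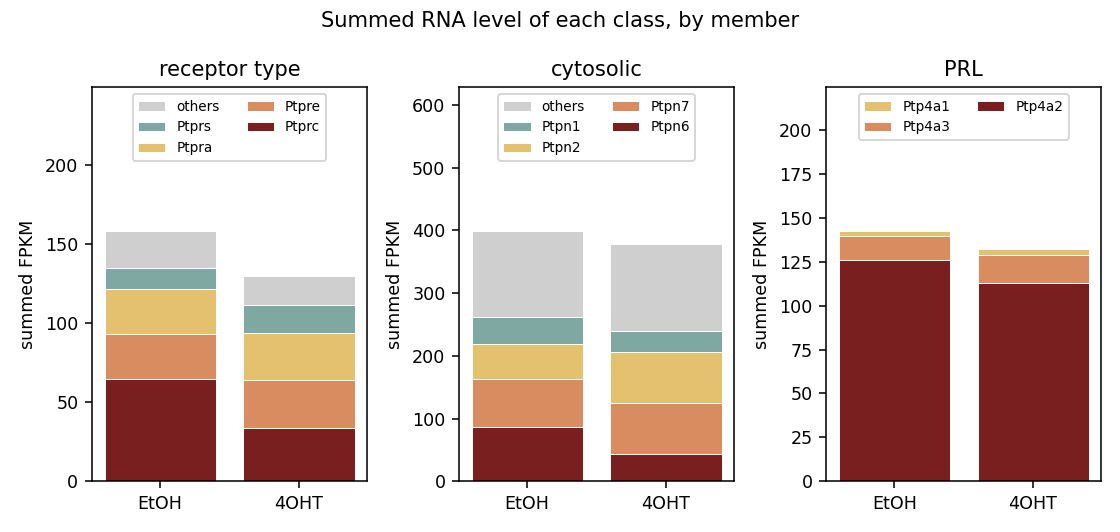
Summed FPKM of each class in EtOH and 4OHT, stacked by the leading members. The receptor-type bar is higher in EtOH (158.4) than in 4OHT (130.0), mostly through Ptprc at its base, while the cytosolic bars are close (399.1 and 379.2).

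Receptor and cytosolic types differed in how many of their genes were expressed. Members of at least 1 FPKM made up 38.1% of the receptor types and 76.5% of the cytosolic types. The median log2 change of these members was 0.09 in the receptor class and -0.10 in the cytosolic class, against -0.06 over all 11022 genes of at least 1 FPKM. When the EtOH values were brought to an equal FPKM total, these medians were -0.01 in the receptor class, -0.20 in the cytosolic class and -0.16 over all genes. The sign of the receptor median thus depends on the scaling. Its place above the median of all genes could hardly change, since the scaling lowers all genes by nearly the same amount. Without Ptprc the unscaled receptor median was -0.05, close to the -0.06 over all genes. With Ptprc kept, the receptor median was 0.23 for members of at least 5 FPKM. It was 0.28 without the members that overlap an expressed row, such as Ptpra and Ptpre, or share more than 10% of their words. Ptprj, at 9.65%, stayed in. The cytosolic median was -0.05 in both cases. The difference between the classes was not tested, since members are not replicates. The summed level of the receptor types was 158.4 FPKM in EtOH and 130.0 FPKM in 4OHT, a ratio of 1.22. Ptprc held 40.7% of it in EtOH and 26.0% in 4OHT, and without Ptprc the sums were 93.90 FPKM in EtOH and 96.18 FPKM in 4OHT, a ratio of 0.976. The cytosolic sums were 399.1 FPKM in EtOH and 379.2 FPKM in 4OHT, a ratio of 1.05. Ptpn6 held 21.5% in EtOH and 11.3% in 4OHT, and without it the ratio was 0.932. In each class, then, the higher sum in EtOH rested on 1 leukocyte gene. As a share of the FPKM of all genes, the receptor types held 0.0268% in EtOH and 0.0239% in 4OHT, and the cytosolic types 0.0675% in EtOH and 0.0696% in 4OHT, so that the cytosolic sum was the lower one in EtOH on that scale.

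Among the genes that work with these phosphatases are inhibitory receptors that recruit SHP-1 or SHP-2 through phosphorylated tyrosine motifs (ITIMs), and most of those tested rose. Of 17 tested receptors 14 rose, 1 fell and 2 did not pass, against the 12.0% and 10.5% of all tested genes called higher and lower; their median log2 change was 0.93, against -0.06 over all expressed genes. Clec4a2, an inhibitory lectin, rose to 14.5 FPKM in EtOH, against 0.160 FPKM in 4OHT (3.74). Cd300lf rose to 42.3 FPKM in EtOH, against 5.77 FPKM in 4OHT (2.68), with a locus that overlaps Rab37, the sialic acid receptor Cd33 to 92.7 FPKM in EtOH, against 22.5 FPKM in 4OHT (2.00), and Lilrb3, also named Pirb, to 16.6 FPKM in EtOH, against 3.55 FPKM in 4OHT (1.95). The member that fell, Gm885, now named Milr1, had 1.72 FPKM in EtOH and 3.63 FPKM in 4OHT, and Pecam1 and Cd72 did not pass. Many of these receptors are expressed on mature myeloid cells, and the part of such cells in their rise was not tested.

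**Figure D4:**
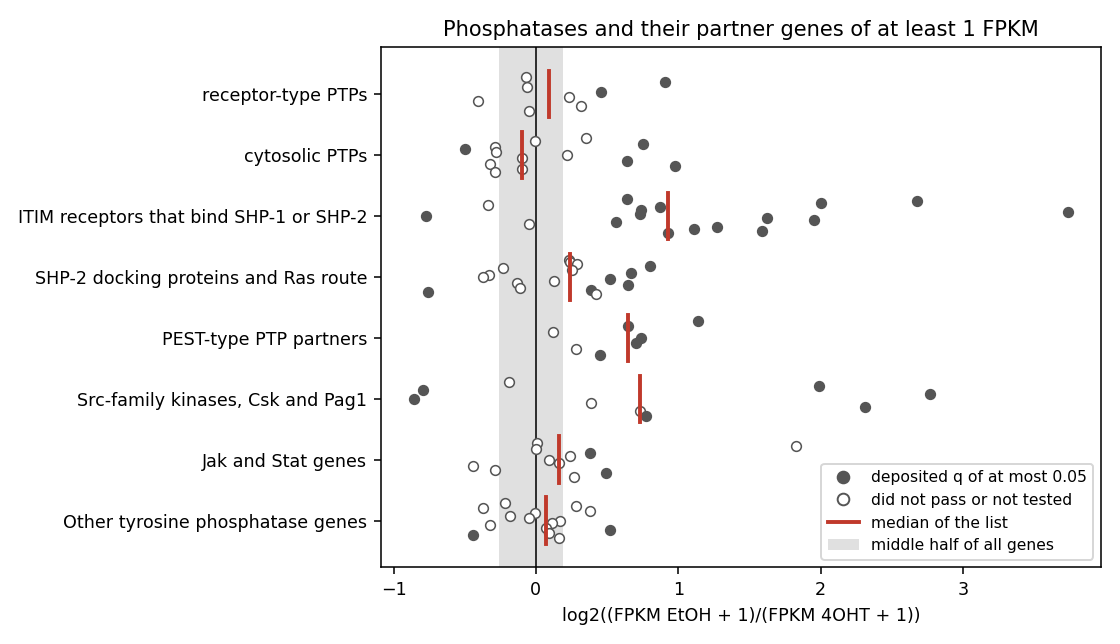
Log2 change, EtOH over 4OHT, of the receptor-type and cytosolic phosphatases and of 6 lists of partner genes, each point a gene of at least 1 FPKM in either condition (filled where called), with red bars for medians and a grey band for the quartiles of all genes. The ITIM receptors have the highest median (0.93), and the Jak and Stat genes (0.16) and other tyrosine phosphatases (0.07) lie within or near the band.

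The partners of the PEST phosphatases and the Src-family kinases also held several called genes. Of 8 PEST partners 5 rose (62.5%, against 12.0% of all tested genes) and 3 did not pass, with a median of 0.65 over the 7 of at least 1 FPKM, against -0.06 over all genes. Pstpip1, an adaptor that binds Ptpn12, had 57.8 FPKM in EtOH and 25.6 FPKM in 4OHT (1.14), and the kinase Ptk2b, the adaptor Pxn and Pstpip2 rose by 0.74, 0.70 and 0.65 on the log2 scale. The Src-family list also held Csk, Matk and Pag1. Of its 8 tested genes 4 rose, 2 fell and 2 did not pass. Of all tested genes 12.0% were called higher and 10.5% lower. The median over the 9 listed genes of at least 1 FPKM was 0.73, against -0.06 over all genes. That median is the value of Pag1, whose test had failed and which has no call. Fgr, a myeloid Src-family kinase, had 3.92 FPKM in EtOH and 0.239 FPKM in 4OHT (1.99). Matk, a Csk-like kinase that inhibits the family, had 27.9 FPKM in EtOH and 4.82 FPKM in 4OHT (2.31). Lck fell to 1.51 FPKM in EtOH, against 3.55 FPKM in 4OHT (-0.86), and Csk, at 63.4 FPKM in EtOH and 72.5 FPKM in 4OHT, did not pass.

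Substrates and adaptors of the Ras and Jak routes held called genes as well. Among 17 tested genes of SHP-2 docking and the Ras route, the counts were 5 risen, 1 fallen and 11 that missed the limit, or 29.4% higher and 5.88% lower against the 12.0% and 10.5% of all tested genes, with a median of 0.24. Dok3 rose to 72.0 FPKM in EtOH, against 41.0 FPKM in 4OHT (0.80), Gab3 to 3.39 FPKM in EtOH, against 1.77 FPKM in 4OHT (0.67), and Shc1 to 46.1 FPKM in EtOH, against 29.0 FPKM in 4OHT (0.65). Spry1, an inhibitor of the route, fell to 0.587 FPKM in EtOH, against 1.69 FPKM in 4OHT (-0.76). Of 10 tested Jak and Stat genes 2 rose, Stat6 (0.49) among them, and 8 did not pass, with a median of 0.16. The 20.0% called in either direction lie near the 22.5% of all tested genes. Jak2, a substrate of PTP1B, had 41.7 FPKM in EtOH and 11.0 FPKM in 4OHT (1.83), but its test had failed and it has no call. Among 16 tested genes on the list of other tyrosine phosphatases, outside the classical and PRL groups, 2 rose, 1 fell and 13 did not pass. That was 12.5% higher and 6.25% lower, against 12.0% and 10.5% of all tested genes. Of the listed genes of at least 1 FPKM, Ssh2, which acts on cofilin, rose (0.52) and Ubash3a fell (-0.44). Ptplad1 is on the list by its name only and did not pass.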

How the data were processed

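RNA sequencing of 2 conditions was analysed from 1 table. The authors gave 1 FPKM value per gene and condition, made from 2 biological replicates; the way they were combined, and any scaling across libraries, is not given in the sources used here. Per the submitters' processing notes the tools were Cuffdiff 2.0.2, Bowtie2 2.0.0.7 and CASAVA 1.8.2, on mm9. Per the file headers, the table also holds a p-value, a q-value, a ratio of EtOH over 4OHT and a test status for each gene. The p-values and q-values are the authors' deposited ones, and the deposited ratio with a limit of 1.5 made their second call.

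From the FPKM values, log2 changes were computed with a pseudocount of 1, which understates the change of low genes; this log2 scale is not the authors' deposited one. Medians were taken over genes that reached 1 FPKM in one condition or both. FPKM is relative to the whole library, so abundant RNAs that rise lower all others. Scaling EtOH to the FPKM sum of 4OHT moved the median of all genes by -0.10. That shift reflects the unequal FPKM sums, and the scaling neither measures nor corrects the effect of abundant RNAs. Every member is accounted for; those of at least 1 FPKM are named with values, and of each other list up to 4 called genes of at least 1 FPKM with the largest change. Csk, Pag1, Ptplad1, Jak2, Gm885, Pecam1, Cd72 and the overlapping or neighbouring rows were named after their values were seen. The members, lists and motifs were chosen with earlier results of these data known. Some genes that this rule names are not reported here. Rows that name several genes were not used for list members.

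Words of 50 bases shared with other genes were counted in GENCODE M21 transcripts, used for sequence alone. Coordinates of loci are those of the table, with starts counted from 1. Promoter sequences are from RefSeq (GRCm38.p6), and starts on chromosome 18 were not used. The steps were run in Python 3.11.15 with pandas 2.3.3.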

Additional observations from a re-analysis of the deposited data

How the results depend on the processing

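No paired analysis was possible because each condition has 1 value that combines both replicates, and for the same reason no replicate could be left out. The 6 members called higher and 1 called lower were the same in number at a q-value limit of 0.01. With a ratio of at least 1.5 the lower count was 0, and with a ratio of at least 2 it was 1 higher (Ptprg; Ptpn6 has a ratio of 2.00 only after rounding) and 0 lower. The receptor-type median of 0.09 was 0.10 and 0.06 with pseudocounts of 0.1 and 5, -0.01 after scaling the EtOH values so that both conditions had an equal FPKM sum, 0.00 without the filter on low values and 0.23 for members of at least 5 FPKM. The cytosolic median of -0.10 was -0.07 with a pseudocount of 5, -0.20 with that scaling, -0.01 without the filter and -0.05 for members of at least 5 FPKM. Ptpra, Ptpre, Ptpn9, Ptp4a1 and Ptprcap overlap an expressed row or share more than 10% of their words. Leaving them out gave 0.28 for the receptor types and -0.05 for the cytosolic types, an alternative chosen after seeing the data. All 75 single-gene changes of the 25 members under the pseudocounts and the scaling kept their direction. A pseudocount cannot turn a direction. The scaling lowers every EtOH value, so it could have turned only a small positive change. The smallest positive change, that of Ptp4a2, was 0.15 and became 0.03, so the kept directions say little. Depth is unknown, so values under 1 FPKM are the least certain.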
